A study of Mus musculus with 32 samples.

Results

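Lipolysis enzymes and lipid droplet proteins were followed as 10 genes, given by name: Pnpla2, Lipe, Mgll, Abhd5, G0s2, Plin1, Plin2, Plin4, Plin5 and Cidec. Each matched 1 of the 47643 gene IDs counted. The data were 3′ tag RNA-seq counts from male mice, 10 weeks old, whose strain is C57BL/6 in the labels and C57BL/6J in the study's methods, that received corticosterone (Cort) in the drinking water, or the ethanol vehicle alone (Veh), for 7 days. During that time they ate a normal protein diet (NPD, 20% of kcal from protein) or a high protein diet (HPD, 60% of kcal from protein, with less carbohydrate). Epididymal white adipose tissue (eWAT) and liver had 4 libraries each in all 4 groups, 32 in total. The study left out liver Veh HPD replicate 4 as an outlier, and so did the comparisons here, which leaves 3 libraries in that group. Cort and diet were given to the whole animal, and in bulk tissue fewer cells of a type cannot be told apart from less RNA per cell.

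Triglyceride is stored in lipid droplets and is taken apart there by 3 lipases acting in turn. ATGL, encoded by Pnpla2, removes the first fatty acid, hormone-sensitive lipase (Lipe) the next and monoglyceride lipase (Mgll) the last. ABHD5, also called CGI-58, activates ATGL, and G0S2 inhibits it. Perilipins coat the droplet. PLIN1 is the perilipin of fat cells, where it holds ABHD5 back until adrenergic signalling releases it. PLIN2 covers droplets in most cells and is the usual droplet protein of the fatty liver, PLIN5 belongs to tissues that burn fatty acids, and PLIN4 is abundant in white fat. CIDEC, also called FSP27, sits where droplets touch and helps them to fuse into larger ones. Glucocorticoids are known to affect both lipolysis and fat storage.

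Library totals ran from 9794683 to 18057936 counts in eWAT and from 8933307 to 17447524 in liver. The fat marker Adipoq was between 3678 and 10148 CPM (counts scaled to a common library total, the unit of all levels here) in every eWAT library, and albumin (Alb) was between 33636 and 202190 CPM in the 15 liver libraries used. Some libraries held transcripts of other tissues. In eWAT Cort HPD replicate 4, 8 epididymis and testis markers summed to 9080.2 CPM, against at most 11.0 CPM in the other eWAT libraries, although 2 of the 8 were at 0 in all 16. In liver Cort NPD replicate 3, 8 skeletal muscle markers summed to 615 CPM, against at most 54.7 CPM in the other liver libraries. The summed CPM of 5 red blood cell markers was 12684 to 25856 in eWAT Cort HPD and 3619 to 9273 in the other eWAT groups. In liver it was 5271 to 7622 in Cort HPD and 1358 to 3544 in the other groups.

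The starts of 3 of the genes are shown because the results turn on them: G0s2 for the cort response of eWAT, Plin2 for the diet response of eWAT and Mgll for the diet response of liver. All 10 genes matched a RefSeq promoter on GRCm38.p6, 250 bases before the start and 50 from it on, and 4 of them (Lipe, Mgll, Plin5 and Cidec) matched 2. Capitals mark matches on either strand to 6 motifs: AGAACA of the glucocorticoid receptor, AGGTCA of nuclear receptors, DR1, TTGCNNAA of C/EBP, the E-box CACGTG and TATAAA. The first lies on the reverse strand of chr1:193273139-193273438, the next on the reverse strand of chr4:86670010-86670309 and the last on the forward strand of chr6:88724162-88724461.
G0s2: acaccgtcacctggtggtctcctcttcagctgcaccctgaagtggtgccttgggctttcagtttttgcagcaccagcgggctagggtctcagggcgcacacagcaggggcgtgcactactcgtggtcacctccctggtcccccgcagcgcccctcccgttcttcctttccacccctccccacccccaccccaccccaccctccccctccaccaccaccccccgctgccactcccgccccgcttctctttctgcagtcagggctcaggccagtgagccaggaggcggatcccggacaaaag
Plin2: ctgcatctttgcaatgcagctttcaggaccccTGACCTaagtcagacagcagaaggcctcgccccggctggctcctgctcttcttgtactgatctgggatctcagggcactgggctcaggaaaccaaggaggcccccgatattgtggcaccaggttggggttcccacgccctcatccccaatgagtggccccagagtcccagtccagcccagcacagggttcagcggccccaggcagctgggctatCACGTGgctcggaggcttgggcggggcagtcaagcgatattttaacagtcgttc
Mgll: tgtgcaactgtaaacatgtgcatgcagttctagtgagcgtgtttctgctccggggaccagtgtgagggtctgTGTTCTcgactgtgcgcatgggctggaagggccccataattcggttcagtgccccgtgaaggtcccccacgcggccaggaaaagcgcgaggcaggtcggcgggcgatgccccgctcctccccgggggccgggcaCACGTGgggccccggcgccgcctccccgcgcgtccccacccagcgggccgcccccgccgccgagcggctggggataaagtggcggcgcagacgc
The G0s2 promoter held none of the 6 motifs, nor did those of Pnpla2 and Plin4. The Plin2 promoter held AGGTCA, read on the opposite strand, 218 bases before the start. It also held CACGTG, which begins 4 bases before the start and runs across it. The Mgll promoter held AGAACA on the opposite strand 178 bases before the start and CACGTG 44 bases before it. Of the other genes, Lipe held CACGTG, Abhd5 and Plin5 held AGGTCA, and Plin1 and Cidec held TTGCNNAA. Of all 32851 promoters in the table, 19.0% held AGAACA, 16.3% AGGTCA, 10.8% TTGCNNAA, 7.15% CACGTG, 13.6% TATAAA and 0.040% DR1, which is AGGTCA repeated after 1 base and so overlaps the AGGTCA search. A match is a run of letters and not a binding site, and 3′ tags do not tell the starts of a gene apart.

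The first comparison was between the tissues, in Veh mice on NPD. All 10 genes differed between liver and eWAT at an adjusted p under 0.05 (edgeR's quasi-likelihood test on 31 libraries, Benjamini-Hochberg over all genes tested), where 62.7% of the 16482 genes tested did. Liver was higher for 3 genes, G0s2, Plin2 and Plin5, and lower for the other 7. On the joint CPM scale of both tissues, Plin5 stood at 4.17, 3.64, 2.50 and 3.49 CPM in the eWAT libraries and at 106, 156, 128 and 190 CPM in those of liver, 42.0-fold higher. Plin2 was at 229, 161, 156 and 163 CPM in eWAT and at 762, 843, 1260.5 and 553 CPM in liver, 4.82-fold higher. The tissues did not overlap for either gene. For G0s2, 143 to 304 CPM in eWAT met 298 to 1418 CPM in liver, so the tissues touched, with a 3.44-fold difference of the fitted means. The largest gaps were in the fat cell proteins. Plin1 fell from 825 to 1022 CPM in eWAT to 0.125 to 0.575 CPM in liver, and Cidec from 1698 to 2095 CPM to 1.15 to 3.13 CPM. Plin4 was at 1467 to 1570.5 CPM in eWAT and at 3.63 to 10.3 CPM in liver. The lipases were closer: in liver the fitted log2 difference was -4.36 for Pnpla2, -5.64 for Lipe and -2.03 for Mgll. That of Abhd5, the activator of ATGL, was -1.05. The sizes of these differences depend on the scaling, as the joint TMM factors ran from 0.518 to 1.52. With each tissue scaled alone, mean Plin2 was 252 CPM in eWAT and 591 CPM in liver. G0s2 was then at 204 to 434 CPM in eWAT and 204 to 981 CPM in liver. On library totals without factors all 10 genes were still called, beside 11949 of all genes tested. Plin1 in liver rested on 0 to 6 counts in 14 libraries and on 25 counts in Veh HPD replicate 3, and it did not pass the filter on low counts there, so 9 of the 10 genes were tested in liver.

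**Figure D1:**
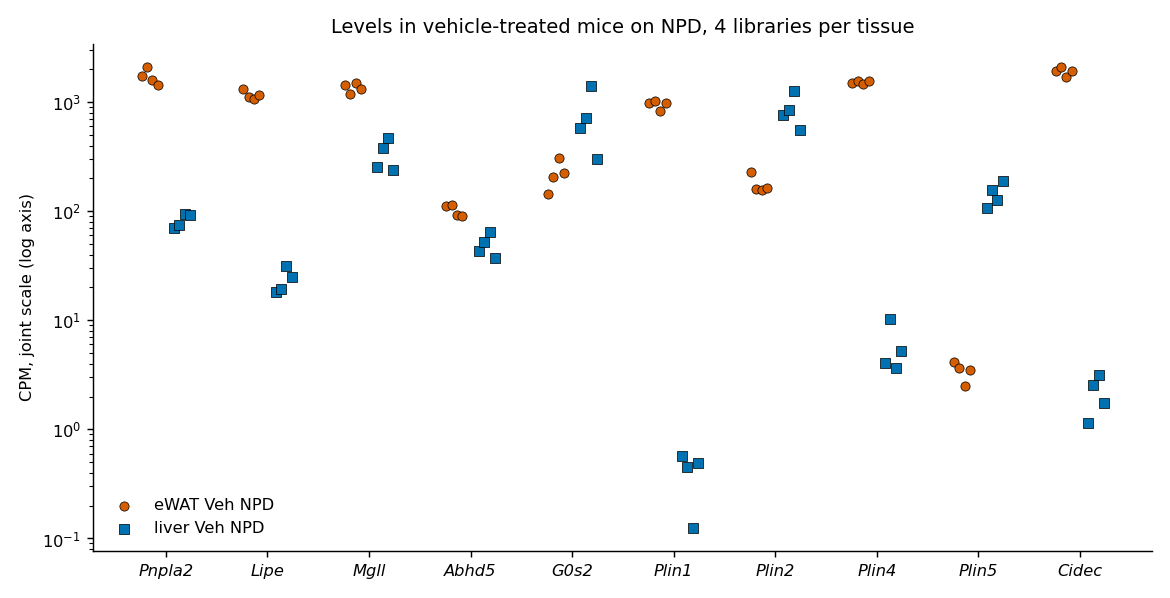
Level of each gene in the Veh NPD mice of both tissues, as CPM on the joint scale with a log axis, where each point is 1 library. Only Plin2, Plin5 and, with a touching range, G0s2 sit higher in liver (squares) than in eWAT (circles), and Plin1 lies between 0.125 and 0.575 CPM in liver.

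In eWAT, cort on NPD raised 5 of the 10 genes: G0s2, Abhd5, Plin2, Lipe and Cidec. This was beside 7.98% of the 15187 genes tested, and none of the 10 fell at the threshold (median log2 fold change 0.43, against -0.02 over all genes tested). G0s2 had the largest of these 5 log2 fold changes. On HPD, 1 of the 10 rose with cort, again G0s2, beside 6.09% of all genes tested, and the median log2 fold change was 0.10. The interaction of diet and cort asks whether the response differed between the diets. It was called for 0 of the 10 genes by edgeR (0.0132% of all genes). At an unadjusted p under 0.05 was 1 of the 10, beside 5.16% of all genes. DESeq2, which called 7 of 15131 genes, and limma voom also called 0 of the 10. The 10 interaction values ran from -0.39 to 0.37. Cell markers moved too: of 7 fat cell markers, Lep and Slc2a4 rose with cort on NPD and Adipoq, Cfd and Adig fell. The sum of the 7, all of them above 0 in every library, was 12997 to 24164 CPM in Veh NPD, 12254 to 14092 in Cort NPD, 20361 to 34619 in Veh HPD and 11816 to 12738 in Cort HPD. On HPD single markers went both ways as well. Lep was at 371 to 869 CPM in Veh HPD and 1610 to 2317 in Cort HPD. Adipoq went from 6786 to 10148 CPM in Veh HPD to 4236 to 5036 in Cort HPD, and Cfd from 9333 to 19571 CPM to 2549 to 3129. The 6 markers of stroma, the connective tissue cells of fat, summed to 3978 to 4755 CPM in Veh NPD, 3895 to 4337 in Veh HPD, 2567 to 2733 in Cort NPD and 2794 to 3075 in Cort HPD, with no overlap on either diet. Of these, 4 fell with cort on NPD and 2 on HPD, none rose, and all 6 were above 0 in every library. Of 8 macrophage markers, 1 rose and 2 fell on either diet. The part of these markers in the results below was not tested.

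G0s2, the inhibitor of ATGL, was at 204, 293, 434 and 315 CPM in Veh NPD and at 706, 881, 725 and 749 CPM in Cort NPD. On HPD it was at 225, 213, 202 and 316 CPM in Veh and at 780, 661, 751 and 627 CPM in Cort. Every Cort library was above every Veh library. Cort raised G0s2 2.46-fold on NPD (log2 1.30 ± 0.17 SE, adjusted p = 2.27e-05) and 2.95-fold on HPD (1.56 ± 0.17, adjusted p = 2.36e-06). These calls held under each alternative run, with an adjusted p of at most 2.69e-04 on NPD and 5.28e-05 on HPD. Without Cort HPD replicate 4, the library with epididymis transcripts, the value on HPD was 1.61. The difference between the diets was 0.26 ± 0.24 (unadjusted p = 0.288, adjusted p = 0.988), with a 95% interval from -0.21 to 0.74. G0s2 lies inside the gene Lamb3, which has the opposite strand and 688 counts in all 32 libraries against 176935 for G0s2.

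Abhd5, the activator of ATGL, rose 1.44-fold with cort on NPD, from 159, 160, 133 and 129 CPM to 213, 178, 236 and 206 CPM (0.52 ± 0.12, adjusted p = 0.00514). The groups did not overlap. On HPD it was at 154 ± 5.60 CPM (SD, n = 4) in Veh and 179 ± 18.6 CPM in Cort, a log2 change of 0.22 ± 0.12 that was not called (adjusted p = 0.327). The activator and the inhibitor were thus both higher with cort on NPD, with a larger log2 value for the inhibitor. That difference between the genes was not tested.

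Lipe rose 1.33-fold with cort on NPD, from 1872, 1573, 1521 and 1669.7 CPM to 2389.7, 2265, 2230.3 and 1935 CPM. The groups did not overlap, and the log2 change was 0.41 ± 0.12 (adjusted p = 0.0390). The call was close to the threshold. It was lost when any of Veh NPD replicates 2, 3 and 4 or Cort NPD replicates 1, 2 and 3 was left out (adjusted p 0.0854 to 0.132), and on library totals without TMM factors (0.0776). On HPD the log2 change of Lipe was 0.11 ± 0.12. The other lipases were not called. Pnpla2 was at 2426 ± 392 CPM in Veh NPD, 3121 ± 688 in Cort NPD, 2745 ± 473 in Veh HPD and 2919.8 ± 101 in Cort HPD, and its log2 change with cort on NPD was 0.36 ± 0.15 (adjusted p = 0.152). Without Cort NPD replicate 4, which had the lowest Pnpla2 of its group, that change was 0.48 and passed the threshold (adjusted p = 0.0460). Mgll was at 1933 ± 206 CPM in Veh NPD and 1634 ± 126 in Cort NPD (log2 change -0.24 ± 0.12, adjusted p = 0.255), and on HPD its change with cort was -0.21 ± 0.12 (adjusted p = 0.373).

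Among the droplet proteins, Plin2 was called both for cort and for diet. In Veh NPD it was at 326, 227, 222 and 232 CPM, and in Cort NPD at 349, 322, 333 and 386 CPM. On HPD it was at 202, 187, 199 and 212 CPM in Veh and at 220, 222, 214 and 190 CPM in Cort. Cort on NPD raised it 1.38-fold (0.47 ± 0.12, adjusted p = 0.0160), although Veh NPD replicate 1 reached the range of the Cort libraries. The call was lost without Veh NPD replicate 2, 3 or 4 or Cort NPD replicate 4 (adjusted p 0.0572 to 0.0724). On HPD the change with cort was 0.08 ± 0.12. For diet in Cort mice, all 4 Cort HPD libraries lay under all 4 Cort NPD libraries. There HPD lowered Plin2 to 0.609-fold (-0.72 ± 0.12, adjusted p = 0.00349), the only call among the 10 genes in that comparison, where 0.487% of all genes were called. It held under each alternative run (adjusted p at most 0.0241), and without Cort HPD replicate 4 it was -0.67 (adjusted p = 0.0143). The red blood cell markers were also higher in Cort HPD, as given above, and their part was not tested. In Veh mice edgeR called 0 of the 10 genes for diet (0.0593% of all genes), and so did limma voom, which called 19 of 15187. DESeq2 also gave 0 calls among the 10, and called 129 of the 4867 genes it gave an adjusted p. A gene without a DESeq2 adjusted p counted as not called. At an unadjusted p under 0.05 in edgeR were 3 of the 10, beside 8.03% of all genes. Their log2 changes were -0.33 ± 0.12 for Plin2 (adjusted p = 0.415), -0.28 ± 0.12 for Mgll (0.532) and -0.38 ± 0.17 for G0s2 (0.560). The 10 values ran from -0.51 for Plin5 to 0.18 for Pnpla2. The interaction for Plin2 was -0.39 ± 0.17 (unadjusted p = 0.0352, adjusted p = 0.929).

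Cidec rose 1.37-fold with cort on NPD, from 2769, 2957, 2421 and 2748 CPM to 3500.1, 4068, 4224 and 3105 CPM (0.45 ± 0.14, adjusted p = 0.0399). The groups did not overlap, yet the call was lost without any of Veh NPD replicates 1, 3 and 4 or Cort NPD replicates 1, 2 and 3 (adjusted p 0.0626 to 0.145) and on library totals (0.0822). On HPD Cidec was at 2502 ± 511 CPM in Veh and 2841 ± 330 CPM in Cort (0.18 ± 0.14). In Cort mice its log2 change with HPD was -0.39 ± 0.14, which was not called (adjusted p = 0.302). Plin5 was low in eWAT and spread widely. It was at 5.93, 5.14, 3.56 and 4.96 CPM in Veh NPD, at 10.8, 6.69, 24.4 and 3.74 CPM in Cort NPD, at 1.14, 5.33, 1.96 and 5.32 CPM in Veh HPD and at 13.8, 6.95, 8.18 and 12.4 CPM in Cort HPD. On HPD the Cort libraries were all above the Veh libraries, with a log2 change of 1.59 ± 0.51 that edgeR did not call (adjusted p = 0.0747) and DESeq2 did (adjusted p = 0.0188). Plin1 and Plin4, the perilipins of the fat cell, were not called in any eWAT comparison, and their 4 log2 fold changes ran from -0.21 to 0.03 for Plin1 and from -0.18 to 0.05 for Plin4. Plin1 was at 1351 ± 119 CPM in Veh NPD and 1192 ± 142 CPM in Cort HPD.

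**Figure D2:**
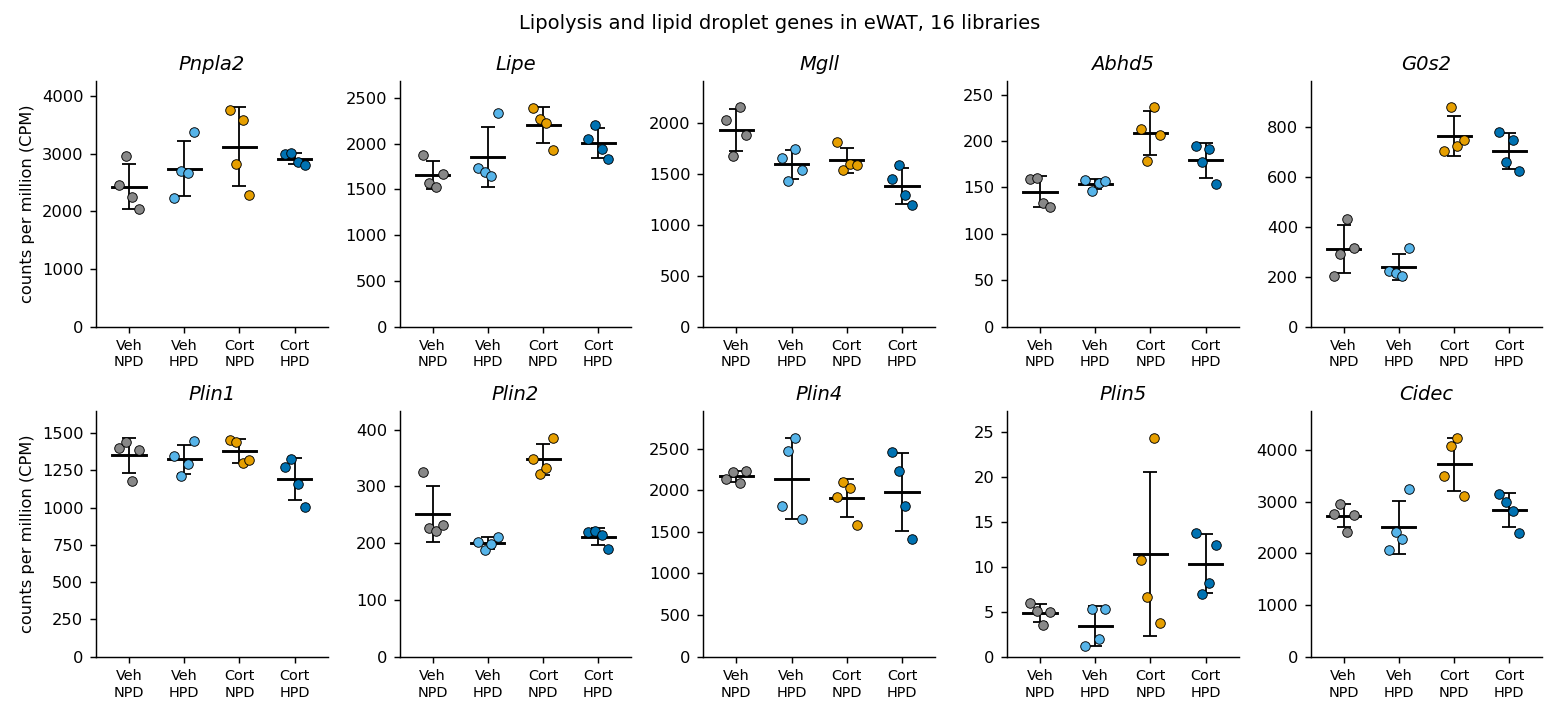
CPM of the 10 genes in eWAT by group, where each point is 1 library, the bar is the mean and the whiskers are 1 SD (n = 4). The Cort libraries of G0s2 lie between 627 and 881 CPM, above all Veh libraries, and Plin2 is lower in Cort HPD (190 to 222 CPM) than in Cort NPD (322 to 386 CPM).

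In liver, cort on NPD raised 1 of the 9 genes tested, Cidec, beside 12.6% of the 12391 genes tested. On HPD, cort lowered 1 of the 9, Pnpla2, beside 9.89%. The diet comparison in Cort mice lowered 2 of the 9, Mgll and Plin4, beside 5.88% of all genes, and 8 of the 9 log2 fold changes were below 0 (median -0.80, against -0.01 over all genes tested). In Veh mice diet was called for 0 of the 9 by edgeR (0.169% of all genes). At an unadjusted p under 0.05 were 3 of the 9 (Mgll, Pnpla2 and Plin2), beside 9.4% of all genes. DESeq2, which called 111 of 12377 genes there, and limma voom, which called 14 of 12391, also called 0 of the 9. On library totals in place of TMM factors every liver log2 fold change moved by -0.24 for cort on HPD and by -0.18 for diet in Cort mice, so small values in these comparisons depend on the scaling. Fat cell markers in liver were few: Adipoq was 0.233 to 3.48 CPM, Lep, Adig and Slc2a4 were at 0 in some libraries, and the 7 markers summed to 23.4 to 118 CPM, mostly Acaca, which liver also expresses. The 8 macrophage markers, all above 0 in every library, summed to 183 to 245 CPM in Veh NPD and 92.8 to 150 CPM in Cort NPD, with no overlap, and to 169 to 206 CPM in Veh HPD and 108 to 177 CPM in Cort HPD. Of them 4 fell with cort on NPD and 2 on HPD, and none rose. Their part in the cort results in liver was not tested.

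Cidec in liver was at 0.790, 1.80, 2.16 and 1.18 CPM in Veh NPD and at 2.39, 9.40, 3.63 and 6.57 CPM in Cort NPD. On HPD it was at 1.17, 3.11 and 3.85 CPM in Veh and at 2.29, 2.85, 2.52 and 2.23 CPM in Cort. On NPD the groups did not overlap, and cort raised Cidec 3.71-fold (1.89 ± 0.42, adjusted p = 0.00466). These values rested on 10 to 25 counts a library in Veh NPD and 31 to 109 in Cort NPD. The call held under each alternative run (adjusted p at most 0.0346). Of the 7 fat cell markers, 5 were tested in liver. With cort on NPD, Acaca (log2 change 1.38) and Slc2a4 (2.59, adjusted p = 0.0341) rose and Cfd fell (-2.23), while Adipoq was at 0.346 to 3.48 CPM in Veh NPD and 0.693 to 1.06 CPM in Cort NPD. Slc2a4, which muscle also expresses, was at 0.308, 0.949, 5.22 and 2.13 CPM in Cort NPD. The highest was replicate 3, the library with muscle transcripts, and without it the log2 change of Slc2a4 was 1.68 and not called (adjusted p = 0.183, an alternative chosen after seeing the data). Without the same library the change of Cidec was 2.03 (adjusted p = 0.00535). The part of the fat cell markers in the Cidec result was not tested. On HPD the change of Cidec with cort was -0.11 ± 0.43, and the interaction was -2.0 ± 0.60 (unadjusted p = 0.00322, adjusted p = 0.195). In Cort mice its log2 change with HPD was -1.14 ± 0.39, not called (adjusted p = 0.0903), and it passed without Cort NPD replicate 1 (-1.39, adjusted p = 0.0387) and on library totals (-1.31, adjusted p = 0.0479).

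Mgll, the last lipase of the chain, was the clearest diet result in liver. It was at 277, 337, 207 and 243 CPM in Cort NPD and at 102, 102, 107 and 122 CPM in Cort HPD, and the groups did not overlap. HPD lowered it to 0.407-fold in Cort mice (-1.30 ± 0.21, adjusted p = 8.30e-04). It held without any single library and was lost when the left-out Veh HPD replicate 4 was put back (-1.29, adjusted p = 0.0636), a library that is in neither group of this comparison. In Veh mice Mgll was at 174, 265, 322 and 162 CPM on NPD and at 106, 175 and 165 CPM on HPD (-0.63 ± 0.23, adjusted p = 0.337). The interaction was -0.66 ± 0.31 (unadjusted p = 0.0419, adjusted p = 0.390). Within the bounds of Mgll lie further annotated genes, of which Gm44005 on the same strand had 6249 counts in all 32 libraries against 415036 for Mgll.

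Pnpla2 in liver was at 74.8, 89.8 and 75.4 CPM in Veh HPD and at 45.7, 63.3, 51.9 and 57.2 CPM in Cort HPD. The groups did not overlap, and cort lowered it to 0.682-fold (-0.55 ± 0.17, adjusted p = 0.0468). This call was at the edge. It was lost without any of Veh HPD replicates 1, 2 and 3 or Cort HPD replicates 1, 3 and 4 (adjusted p 0.0719 to 0.198), with Veh HPD replicate 4 put back (0.0880), in a fit of these groups alone (0.0639) and without the filter on low counts (0.0512). On NPD, Pnpla2 was at 57.5 ± 8.0 CPM in Veh and 66.7 ± 14.1 CPM in Cort (0.21 ± 0.16). The interaction was called for 0 of the 9 genes by edgeR (0.113% of all genes). At an unadjusted p under 0.05 were 3 of the 9, beside 12.1% of all genes. DESeq2, which called 125 of 12377 genes, and limma voom, which called 7 of 12391, also called 0 of the 9. The interaction value for Pnpla2 was -0.76 ± 0.24 (unadjusted p = 0.00410, adjusted p = 0.205). Lipe in liver was at 16.2 ± 4.21, 15.7 ± 7.08, 18.7 ± 5.0 and 13.6 ± 1.96 CPM in the Veh groups on NPD and HPD and the Cort groups on NPD and HPD, in that order. Abhd5 was at 34.1 ± 8.17, 35.5 ± 13.7, 31.9 ± 3.45 and 39.0 ± 5.70 CPM. Neither was called in any liver comparison. The log2 change of Mgll with cort was 0.20 ± 0.21 on NPD (adjusted p = 0.580) and -0.46 ± 0.22 on HPD (0.215) and was not called on either diet.

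G0s2 in liver was at 399, 506, 981 and 204 CPM in Veh NPD and at 476, 393, 248 and 322 CPM in Cort NPD. On HPD it was at 201, 426 and 303 CPM in Veh and at 186, 135, 186 and 121 CPM in Cort. The Cort HPD libraries lay below those of Veh HPD and of Cort NPD. Neither difference was called: cort on HPD gave -0.98 ± 0.42 (adjusted p = 0.177) and diet in Cort mice -1.19 ± 0.40 (adjusted p = 0.102). When only the groups compared were fitted, both passed (adjusted p = 0.0280 and 0.00398).

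Of the perilipins in liver, Plin4 was called for diet in Cort mice. It was at 2.92, 4.92, 5.38 and 3.53 CPM in Cort NPD and at 1.19, 0.465, 1.99 and 1.34 CPM in Cort HPD, from 38 to 71 and from 8 to 26 counts. HPD lowered it to 0.295-fold (-1.76 ± 0.44, adjusted p = 0.0217), and the groups did not overlap. The call was lost without Cort NPD replicate 3 (adjusted p = 0.0701), which held the muscle transcripts, and without Cort HPD replicate 1 (0.0513) or 2 (0.0573). At its 3′ end, positions 56100591 to 56100607, Plin4 overlaps the gene Hdgfl2 on the opposite strand. Hdgfl2 had 6627 counts in all 32 libraries against 473781 for Plin4, and its part was not tested. Plin5, whose gene lies next to Plin4 on chromosome 17, was at 86.6, 93.8, 109 and 77.3 CPM in Cort NPD and at 60.1, 43.4, 53.4 and 53.8 CPM in Cort HPD. These groups did not overlap either, and the log2 change of -0.80 ± 0.27 was not called by edgeR (adjusted p = 0.0999) and was called by DESeq2 (adjusted p = 0.0417). Plin2 was at 591 ± 207 CPM in Veh NPD, 374 ± 49.3 in Veh HPD (n = 3), 454 ± 163 in Cort NPD and 321 ± 44.3 in Cort HPD. Its log2 change for diet was -0.66 ± 0.27 in Veh mice (adjusted p = 0.430) and -0.50 ± 0.25 in Cort mice (adjusted p = 0.248). With cort, none of these perilipins was called: on NPD and HPD the log2 changes were -0.38 and -0.22 for Plin2, 0.07 and -1.05 for Plin4 and -0.13 and -0.41 for Plin5. Cort HPD, the lower group for Mgll, Plin4, Plin5 and G0s2, was also the group with the highest red blood cell markers and hepatocyte markers (8 markers summing to 167928 to 276603 CPM, against 91199 to 145401 in the other groups). Their part was not tested.

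**Figure D3:**
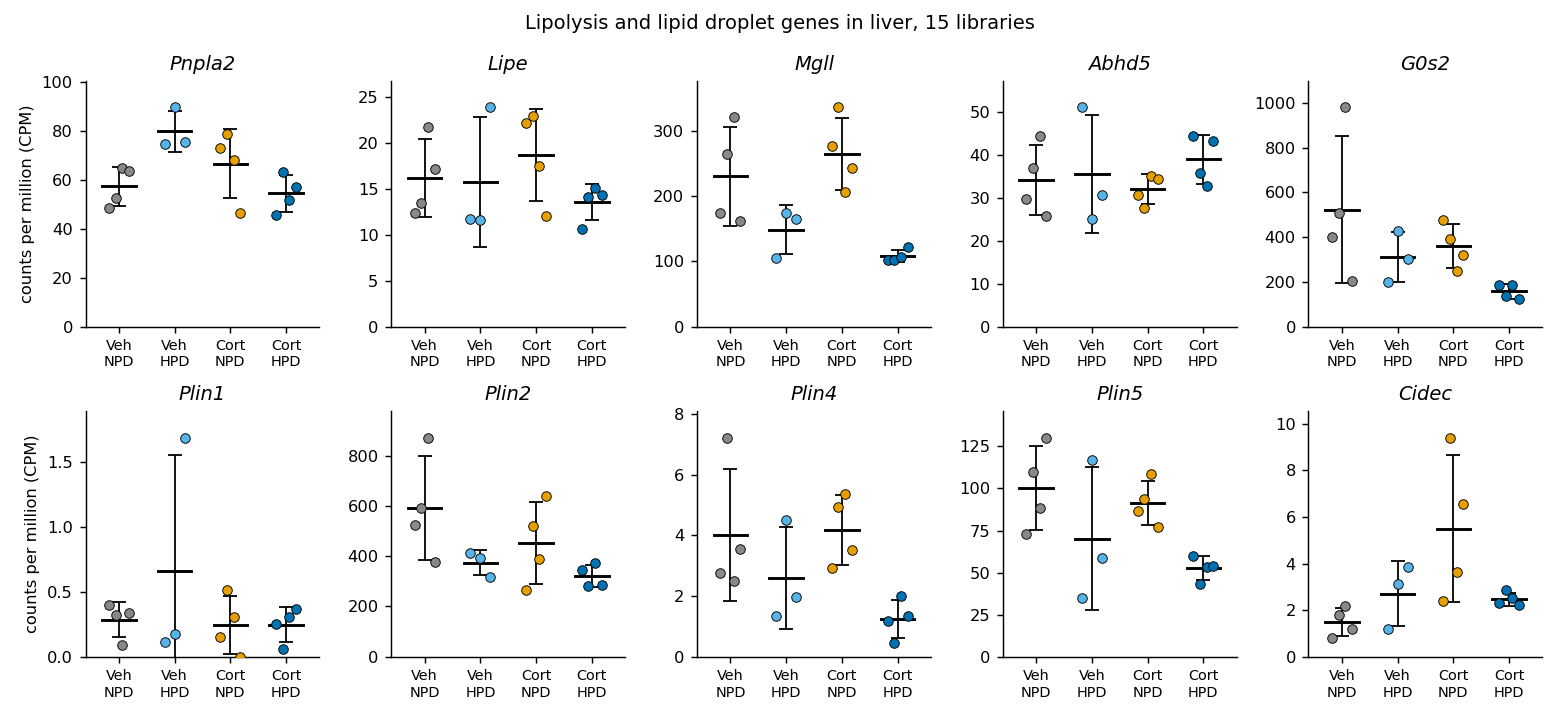
CPM of the 10 genes in liver by group, where each point is 1 library, the bar is the mean and the whiskers are 1 SD (n = 4, and 3 in Veh HPD). Cidec is highest in Cort NPD (2.39 to 9.40 CPM), and Mgll, Plin4, Plin5 and G0s2 are lower in all Cort HPD than in all Cort NPD libraries. Of these, edgeR called Mgll and Plin4 and did not call Plin5 and G0s2. The share of all genes whose groups did not overlap was not computed.

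The cort response itself differed between the tissues for G0s2. A joint fit of 31 libraries gave the cort effect in liver minus that in eWAT, and on NPD 2 of the 10 genes were called, beside 3.85% of the 16482 genes tested. They were G0s2 (-1.79 ± 0.44, adjusted p = 0.0157) and Cidec (1.49 ± 0.43, adjusted p = 0.0419). On HPD 1 of the 10 was called, G0s2 again (-2.57 ± 0.45, adjusted p = 0.00110), beside 3.12%. G0s2 thus rose with cort in eWAT and had log2 changes of -0.54 ± 0.40 and -0.98 ± 0.42 in liver. The Cidec difference was lost in 13 of the 16 fits that left out a library (adjusted p 0.0566 to 0.127). It was also lost with limma voom (0.251, and 0.0770 with quality weights), without the filter on low counts (0.0884) and with all libraries (0.159). The libraries whose absence kept it were liver Veh NPD replicate 3 and liver Cort NPD replicates 1 and 3. The G0s2 difference on NPD was lost only with the left-out liver library put back (adjusted p = 0.0725), and that on HPD held under each alternative run. Plin2 on NPD, at -0.80 ± 0.29 (adjusted p = 0.119), passed without liver Veh NPD replicate 4 (-0.96, adjusted p = 0.0443) or liver Cort NPD replicate 4 (-1.03, adjusted p = 0.0303). The 10 values ran from -1.79 to 1.49 on NPD and from -2.57 to -0.13 on HPD. The labels do not say which eWAT and liver libraries came from the same mouse, so the joint fit took all libraries as independent and its p-values do not account for shared mice.

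**Figure D4:**
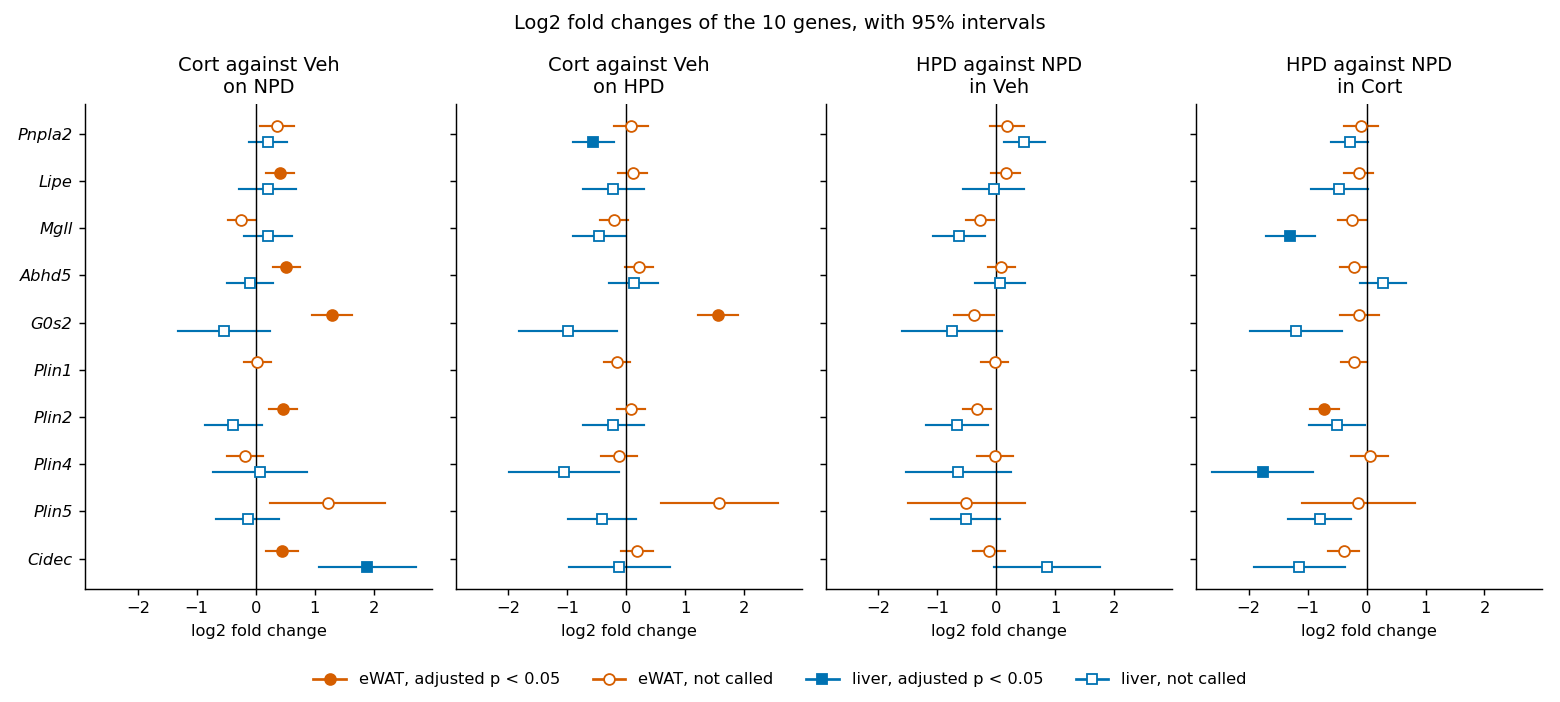
Log2 fold change of each gene with its 95% interval in eWAT (circles) and liver (squares), for cort on each diet and for diet in Veh and Cort mice, where filled symbols have an adjusted p under 0.05. With cort, G0s2 lies right of 0 in eWAT on both diets and left of 0 in liver, where the interval on NPD holds 0, and diet in Cort mice has 8 of 9 liver values left of 0. Plin1 was not tested in liver.

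Together the 10 genes took 1.14% to 1.63% of the eWAT counts and 0.0679% to 0.240% of the liver counts on the TMM scale. Within groups, deviations from the group mean went together for some pairs. Over the 16 eWAT libraries the highest Pearson correlations were 0.75 for Lipe and Cidec, 0.71 for Pnpla2 and Plin5 and 0.69 for Lipe and Plin1, and the lowest was -0.47 for G0s2 and Plin2. Over the 15 liver libraries they were 0.80 for Mgll and G0s2, 0.72 for Plin4 and Plin5 and 0.69 for Mgll and Cidec, and the lowest was -0.59 for Abhd5 and Plin5. The correlation of Plin4 and Plin5 was 0.14 in eWAT. The points share their libraries, and these values are a description. By the root mean square difference of centred log2 CPM, the genes most like G0s2 over the 16 eWAT libraries were Phlda3 (0.262), Dmpk (0.264), Dennd4a (0.270), Serpina3n (0.286) and Cdr2 (0.30). Those most like Cidec over the 15 liver libraries were Acot4 (0.459), Kctd11 (0.471), Cd63 (0.478), Map4k4 (0.495) and Rasl11b (0.519).

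Other genes of the pathway were counted by lists, with log2 fold changes in brackets for genes at an adjusted p under 0.05. In eWAT these counts stand beside 7.98% of all genes called for cort on NPD, 6.09% on HPD and 0.487% for diet in Cort mice. For cort these shares come to about 1 or 2 genes in a list of 12 to 20, and a count of that size is near the background. In eWAT, cort on NPD raised 1 and lowered 3 of 17 other lipases and lipolysis factors, and on HPD 1 rose and 2 fell. Pnpla3, a relative of ATGL, rose (0.83 on NPD, 1.49 on HPD), while Aqp7, the channel through which fat cells release glycerol, fell (-0.81 and -1.12), as did Ces1f (-1.45 and -1.66). Of 20 other droplet proteins, 2 rose on NPD, the seipin gene Bscl2 (0.73) and Acsl1 (0.83), and on HPD Cideb rose (from a mean of 0.0476 to 1.87 CPM) and Cidea fell (from 3.78 to 0.622 CPM). Of 14 triglyceride synthesis genes 2 rose on either diet, Dgat2, which makes triglyceride (0.72 and 1.03), and Agpat2 (0.79 and 0.66). Of 20 genes of lipolytic signalling, Prkar2b, a regulatory subunit of protein kinase A (0.90 and 0.72), and the antilipolytic adenosine receptor Adora1 (1.53 and 1.24) rose, and the antilipolytic receptors Hcar1 (-2.68 and -2.34) and Hcar2 (-1.43 and -1.66) fell. Of 12 regulators, Mlxipl (1.09 and 0.91) and Cebpa (0.55 and 0.52) rose on both diets, and Irf4 fell on NPD (-1.07). Diet in Cort mice moved 1 of these genes in eWAT, Cidea, which fell from 4.53 to 0.622 CPM. Of 12 known glucocorticoid receptor targets, 3 rose on NPD, and on HPD 2 rose and 2 fell. Mt1 (2.34 and 1.90) and Mt2 (2.49 and 1.86) rose on both diets, and Sgk1 (-1.14) and Zbtb16 (-1.24) fell on HPD.

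In liver the shares of all genes called were 12.6% for cort on NPD, 9.89% on HPD and 5.88% for diet in Cort mice, which is about 1 to 3 genes in a list of 11 to 21, and a count of that size is near the background. In liver, cort on NPD raised 0 and lowered 4 of 19 other lipases and lipolysis factors, led by Plaat3 (-1.19) and the carboxylesterase Ces1e (-2.07). On HPD 1 rose, Ddhd2 (1.03), and 2 fell, Ces3a (-1.94) and Ces1e (-1.57). Of 21 other droplet proteins, 3 rose and 1 fell on NPD, among them the perilipin Plin3 (0.93) and Cavin1 (0.73), and Fitm1, which helps droplets to form, fell on both diets (-2.04 and -2.41). Hsd17b13 rose on HPD (0.89). Of 13 triglyceride synthesis genes, 4 rose on NPD, led by Agpat3 (0.78) and Agpat1 (1.02), and on HPD Agpat3 (0.60) and Agpat2 (0.54) rose and Lpin2 (-0.79) fell. Of 15 genes of lipolytic signalling, Insr rose (0.74) and Adrb3 fell (-1.83, under 3 CPM) on NPD, and Pde3b rose on HPD (0.54). Of 11 regulators, Srebf1 (-1.25) and Cebpb (-0.93) fell on NPD and Cebpb (-1.44) on HPD. Of the 12 receptor targets, Fkbp5 rose on NPD (2.23), and on HPD 4 fell, led by Per1 (-1.59) and Klf9 (-1.29). Diet in Cort mice raised 1 of the 19 lipases, Plaat3 (0.65), and lowered 2, Pnpla7 (-0.72) and Ces3a (-0.82). Of the 21 droplet proteins, Acsl4 (0.89) and Rnf213 (1.74) rose and Cavin1 fell (-0.87). No gene of the other lists rose, and 1 of 13 triglyceride synthesis genes fell, Agpat1 (-0.89), 1 of 15 signalling genes, Insr (-0.70), 1 of 11 regulators, Foxo1 (-0.81), and 2 of 12 receptor targets, Angptl4 (-1.35) and Zbtb16 (-2.44).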

How the data were processed

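The authors deposited raw counts of reads per Ensembl gene for 32 QuantSeq 3′ libraries, with GRCm38 (mm10), R 4.0.3 and limma named in the submitters' processing notes. The aligner, the counting tool and its strand setting were not given in the sources used here. IDs were matched to symbols of GENCODE M21. From the counts, genes were filtered with filterByExpr (at least 10 counts, 15 in total), scaled by TMM factors and tested with edgeR 4.0.16's robust quasi-likelihood test in R 4.3.3, with 1 mean per group, for each tissue (16 eWAT and 15 liver libraries) and for both together. Adjusted p-values were Benjamini-Hochberg over all genes tested, and an adjusted p under 0.05 was a call. The deposited counts were also scaled to CPM for printing. Standard errors are the log2 fold change divided by the square root of F, and 95% intervals use the normal distribution. The code was tested on simulated counts.

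The 10 genes and the lists were chosen with earlier results of these data known. The rule for named genes covers all 10 in every comparison, and those not called are given in part by their range. From each list, the 2 called genes of smallest p that rose and the 2 that fell, where there were any, are named for the cort comparisons and for diet in Cort mice. For the gene with the smallest p for the mean cort effect of each tissue, the 5 genes most like it are named. Alternatives were DESeq2 1.42.0, limma 3.58.1 (voom, with and without quality weights), RLE factors, library totals, no filter, a replicate block, only the groups compared, all liver libraries and leaving out each library. The depth limits genes at a few counts, such as Plin1 in liver.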

Additional observations from a re-analysis of the deposited data

Results flagged for a closer look

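Of 70 sets of 4 libraries (a gene in a group), 2 had a library far from the other 3 by Dixon's criterion, where chance gives about 1 in 20. Lipe in eWAT Veh HPD replicate 4 was at 2339.6 CPM, against 1651 to 1736 CPM in the other 3 libraries. The fat cell markers of that library summed to 34619 CPM, against 20361 to 22606 CPM in the other 3, and their part was not tested. Plin2 in eWAT Veh NPD replicate 1 was at 326 CPM, against 222 to 232 CPM in the others.

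The cort response differed between liver and eWAT, tested as liver minus eWAT in the joint fit, for G0s2 on NPD (-1.79), for Cidec on NPD (1.49) and for G0s2 on HPD (-2.57). The Cidec call was lost in most fits that left out a library and under several other settings, as given above.

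Liver Veh HPD replicate 4, which entered none of the comparisons above, had Cidec at 9.41 CPM (184 counts), against 0.804 to 2.23 CPM in Veh NPD and 1.2 to 3.97 CPM in the other Veh HPD libraries on the scale of all 16 liver libraries. The same library had the lowest Mgll (36.5 CPM), G0s2 (64.5 CPM) and Lipe (6.19 CPM) of the Veh libraries, while Plin2 (557 CPM) was within the Veh NPD range. Its cell markers were also apart. The hepatocyte markers summed to 51180 CPM, against 91199 CPM or more in the liver libraries used, on the scale of those libraries. The macrophage markers summed to 374 CPM, against at most 245 CPM. The part of these markers was not tested.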

How the results depend on the processing

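Of 2301 values of the genes under 40 alternatives, 2174 kept their direction and their side of the threshold, 52 lost a call, 13 gained a call and 62 changed sign. Counts of calls: eWAT cort on NPD gave 5, and 3 on library totals and with the replicate block (2 to 5 without single libraries). eWAT cort on HPD gave 1, and 2 with DESeq2. Liver cort on HPD gave 1, and 0 without the filter, with the block and with all libraries (0 to 1 without single libraries). Liver diet in Cort gave 2, and 4 on library totals or with only the groups compared and 1 with all libraries (1 to 3 without single libraries). The difference of the cort response between tissues gave 2 on NPD, with 1 under limma voom, with quality weights or without the filter and 0 with all libraries (1 to 2 without single libraries), and 1 on HPD, with 2 on library totals or with DESeq2. The counts for the other comparisons stayed within 1.5 times. The cause was not tested.

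Within a tissue, deviations of same-numbered libraries of different groups correlated from -0.12 to 0.25 in eWAT (1 of 24 pairs over 0.1). In liver they correlated from -0.13 to 0.16 (3 of 21). Of pairs with different numbers, 3 of 72 in eWAT and 8 of 63 in liver were over 0.1. Pairs of an eWAT and a liver library were not examined. The replicate block gave Lipe 0.41 (adjusted p = 0.0632) and Cidec 0.45 (0.0699) for eWAT cort on NPD and Pnpla2 -0.53 (0.0819) for liver cort on HPD, and changed no other call.

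None of the log2 changes that changed sign was called. On library totals they were Plin1 in eWAT cort on NPD (-0.058), Abhd5 in liver cort on HPD (-0.13), Lipe in liver diet in Veh (0.023) and, in the liver interaction, Abhd5 (-0.0089) and Plin2 (-0.056). With limma voom, without and with quality weights, they were Plin5 in eWAT diet in Cort (0.14 and 0.11) and Cidec in liver cort on HPD (0.12 and 0.091), and with weights also Lipe in liver cort on HPD (0.024) and Abhd5 in liver diet in Veh (-0.054). With all libraries they were Lipe in liver cort on HPD (0.038), Abhd5 in liver diet in Veh (-0.043) and, for the tissues on HPD, Mgll (0.065) and Abhd5 (0.033).

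Leaving out single libraries gave these ranges across 0. eWAT cort on NPD: Plin1 -0.034 to 0.060. eWAT cort on HPD: Plin4 -0.24 to 0.017. eWAT diet in Veh: Plin1 -0.091 to 0.0035, Plin4 -0.13 to 0.088. eWAT diet in Cort: Pnpla2 -0.22 to 0.0072, Plin4 -0.074 to 0.18, Plin5 -0.43 to 0.54. eWAT interaction: Mgll -0.038 to 0.10, Plin4 -0.049 to 0.20. Liver cort on NPD: Abhd5 -0.21 to 0.046, Plin4 -0.11 to 0.49, Plin5 -0.27 to 0.018. Liver cort on HPD: Lipe -0.40 to 0.22, Abhd5 -0.048 to 0.48, Plin5 -0.74 to 0.19, Cidec -0.50 to 0.25. Liver diet in Veh: Lipe -0.48 to 0.14, Abhd5 -0.29 to 0.25. Liver interaction: Lipe -0.59 to 0.020, Plin2 -0.081 to 0.39, Plin5 -0.60 to 0.32. Tissues on NPD: Pnpla2 -0.28 to 0.019, Lipe -0.28 to 0.0038, Plin1 -0.96 to 0.15. Tissues on HPD: Lipe -0.55 to 0.073, Abhd5 -0.33 to 0.23, Plin1 -1.93 to 0.89, Cidec -0.71 to 0.065.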
